A study of Caenorhabditis elegans with 6 samples.

Results

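The proteasome subunit genes of Caenorhabditis elegans were taken as every gene whose WormBase symbol begins with pas-, pbs-, rpt- or rpn-. This gave 33 genes among the 46904 gene IDs listed, 14 of the core particle (pas and pbs) and 19 of the regulatory particle (rpt and rpn). Expression was measured in whole hermaphrodites of the wild-type strain N2, as polyadenylated RNA, in 3 control and 3 caffeine libraries of about 300 worms each. Controls were placed as last-stage larvae on standard agar with OP50 bacteria for 72 h at 25 °C, and the caffeine animals were kept the same way with 10 mM caffeine in the agar. Both groups were harvested on day 3 of adulthood. The study was concerned with caffeine, lifespan and lysosomal breakdown of lipids, whereas the proteasome is a separate route, for breakdown of protein in the cytosol and nucleus.

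The proteasome degrades proteins that have been tagged with ubiquitin. Its core particle is a barrel of stacked rings, in which outer alpha rings (pas genes) gate the entrance and inner beta rings (pbs genes) hold the cutting sites. The regulatory particle caps the barrel, with a base that holds a ring of ATPases (rpt genes) and the large scaffold subunits, and a lid that removes ubiquitin. In C. elegans, proteasome genes are known targets of SKN-1A, a form of the transcription factor SKN-1 that is activated when proteasome function fails. They are expressed in all tissues, the germline among them.

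No proteasome subunit gene differed between caffeine and control at the threshold used. The quasi-likelihood test of edgeR, adjusted over all genes by Benjamini-Hochberg, called 0 of 33 at an adjusted p under 0.05, where 24.3% of the 14200 tested genes were called (13.8% higher and 10.5% lower with caffeine). All 33 passed the filter on low counts, and 0 of 14 core and 0 of 19 regulatory genes were called. At an unadjusted p under 0.05 the count was 3 of 33 (9.09%), beside 39.0% of all tested genes. DESeq2 called 1 member, rpn-6.1, as lower, and limma-voom called 0.

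The estimated changes were small in every member. Log2 fold changes, caffeine over control, ran from -0.17 for rpn-1 to 0.13 for pbs-4, that is, from a level 10.9% lower to a level 9.13% higher. The median was 0.015, with 18 members above 0 and 15 below, and the median absolute value was 0.062. Over all tested genes the median log2 fold change was -0.00068 and the median absolute value was 0.23, and 36.0% of them lay between the lowest and the highest member. The tested genes include genes with far lower counts than the members, and this comparison was not matched for level. The 95% interval of each member's log2 fold change, unadjusted for the number of genes, lay within -0.39 and 0.25. As a percentage of the control level, these bounds are -23.8% and 18.8%.

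**Figure D1:**
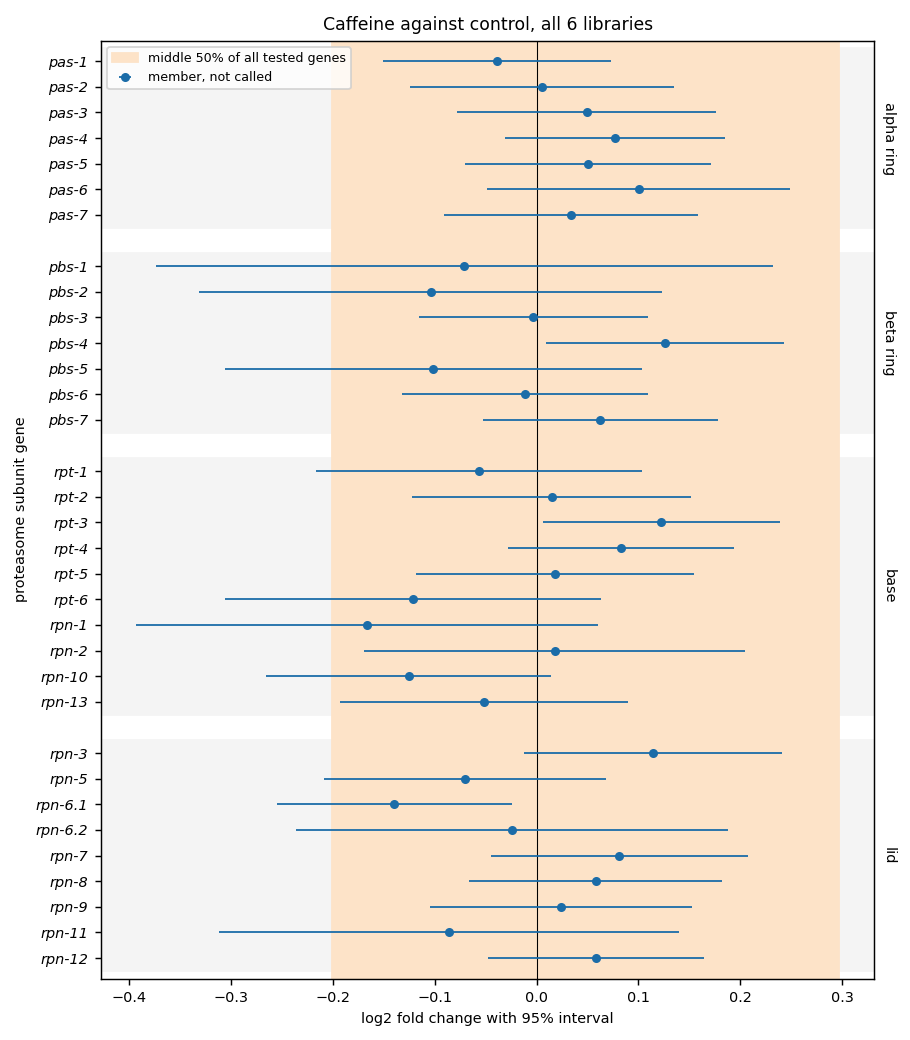
Log2 fold change, caffeine over control, of the 33 proteasome subunit genes (points) with 95% intervals (lines), by subcomplex; the shaded band is the middle 50% of all tested genes, from -0.20 to 0.30. All points lie inside the band, and the intervals of pbs-4, rpt-3 and rpn-6.1 do not hold 0 before adjustment.

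The members were expressed at similar levels per unit of length, with 1 exception. Counts scaled to a common depth of 1000000 (CPM) were divided by the length of the merged exons in kb to compare genes. In control libraries this level ran from 145 CPM per kb for rpn-6.1 to 352 for pas-3 in 32 of the members, a 2.43-fold range. The median was 261 CPM per kb over core genes and 213 over regulatory genes. The exception was rpn-6.2, the second copy of the lid gene rpn-6, at 11.6 ± 1.07 CPM per kb in control and 11.4 ± 0.514 with caffeine (mean ± SD, n = 3 per group). None of the 6 values of rpn-6.1 or of rpn-6.2 was fractional, so the deposited counts show no division of reads between the copies.

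**Figure D2:**
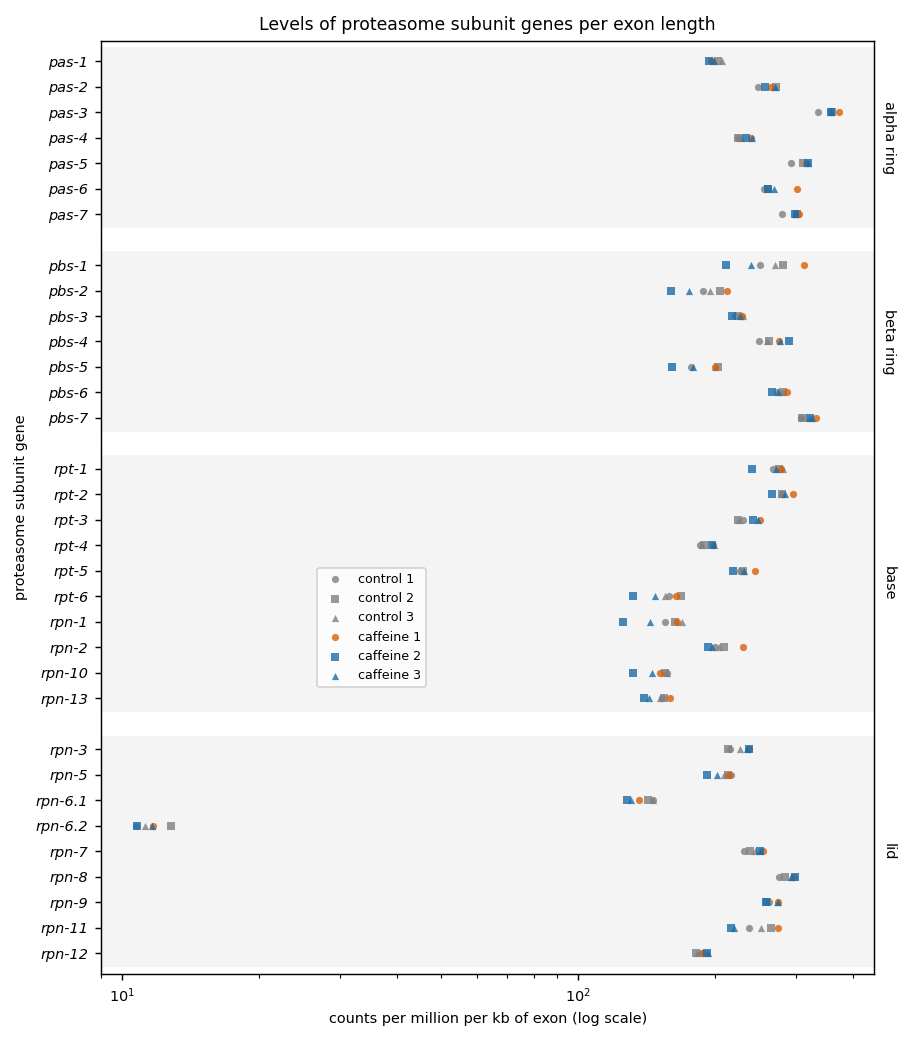
Level of each proteasome subunit gene in CPM per kb of exon (log scale), 1 point per library, for 3 control (grey), caffeine 1 (orange) and caffeine 2 and 3 (blue) libraries. Apart from rpn-6.2, control means lie between 145 and 352, and the groups differ little beside the range between genes.

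With the TMM scaling factors, the summed RNA level of the subunit genes was nearly the same in both groups. Core genes together stood at 3151, 3333 and 3326 CPM in control and at 3463, 3189 and 3286 with caffeine. Regulatory genes stood at 6122, 6244 and 6279 CPM in control and at 6533, 5889 and 6146 with caffeine. For the core, caffeine library 1 was above all controls and caffeine libraries 2 and 3 lay among them. For the regulatory particle, caffeine library 1 was above all controls, caffeine library 2 was below them and caffeine library 3 lay among them. The mean with caffeine was 1.31% higher for the core and 0.414% lower for the regulatory particle, both within the spread between libraries. The ratio of core to regulatory CPM was 0.515, 0.534 and 0.530 in control and 0.530, 0.542 and 0.535 with caffeine.

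The scaling of the libraries touched this comparison. As a share of all counts, without the TMM factors used elsewhere, the 33 genes took 0.923% (exact binomial 95% interval 0.920 to 0.926), 0.936% (0.933 to 0.939) and 0.944% (0.941 to 0.946) in control. With caffeine they took 0.959% (0.956 to 0.962), 0.968% (0.965 to 0.971) and 0.961% (0.958 to 0.964). On that scale the groups did not overlap, and the mean was 3.07% higher with caffeine, beside 0.179% higher with the factors. The scale moved genes in general. With library totals only, the median log2 fold change was 0.042 over all tested genes, beside 0.055 over the 33 members. These intervals cover counting error only. The factors ran from 0.960 for caffeine library 1 to 1.07 for caffeine library 2.

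Among the alpha ring genes, which form the gate of the barrel, 6 of 7 had log2 fold changes above 0 and the median was 0.049. The highest was pas-6 (chromosome V, 5583161 to 5584343, minus strand). It stood at 253, 258 and 257 CPM in control and at 298, 259 and 267 with caffeine. The groups did not overlap, but caffeine library 2 lay just above the highest control and caffeine library 1 stood apart from the others. The log2 fold change was 0.10 (SE 0.065; edgeR adjusted p 0.283).

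The lowest alpha ring gene was pas-1 (chromosome V, 14421566 to 14422618, minus strand), at 185, 192 and 196 CPM in control and 186, 184 and 188 with caffeine. Its log2 fold change was -0.039 (SE 0.049) and the groups overlapped. Of the others, pas-4 had 198, 198 and 201 CPM against 211, 207 and 213, with no overlap, and its log2 fold change was 0.077 (edgeR adjusted p 0.255). pas-2, pas-3, pas-5 and pas-7 overlapped between the groups, with log2 fold changes from 0.0054 to 0.051. With the TMM factors, the alpha ring was the least variable subcomplex with caffeine. The median coefficient of variation over its genes was lower than in the beta ring (3.85%), the base (7.004%) or the lid (3.08%). In control it was the highest, at 3.79%, beside 2.63%, 1.24% and 2.69% in that order. Summed as a share of all counts, without the factors, the alpha ring stood at 0.181 ± 0.0061% with caffeine (mean ± SD). The beta ring stood at 0.155 ± 0.0024%, the base at 0.355 ± 0.0063% and the lid at 0.272 ± 0.0069%. On that scale the alpha ring varied most for its level. With the factors, the same sums with caffeine were 1784 ± 34.5, 1528 ± 104, 3510 ± 248 and 2679 ± 77.0 CPM in that order. There the alpha ring varied least for its level, so the order of the sums with caffeine depended on the scaling.

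The beta ring genes went both ways. Beta subunits differ in role. In yeast and mammals the subunits beta-1, beta-2 and beta-5 carry the cutting sites, and their C. elegans counterparts are pbs-1, pbs-2 and pbs-5, while the other four have no cutting site of their own. The 3 catalytic genes had log2 fold changes of -0.071, -0.10 and -0.10, and the others had -0.0030 for pbs-3, 0.13 for pbs-4, -0.012 for pbs-6 and 0.062 for pbs-7. None of the 7 was called, and the difference between catalytic and other beta genes was noticed after the values were seen and was not tested.

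Among beta ring genes, the catalytic ones varied most between the caffeine libraries. pbs-1 (chromosome IV, 1708814 to 1709745, minus strand) stood at 206, 232 and 222 CPM in control and at 258, 173 and 197 with caffeine. Caffeine library 1 was above all controls and caffeine libraries 2 and 3 were below all of them. Its coefficient of variation was 20.8% with caffeine and 5.92% in control, and its 95% interval, from -0.37 to 0.23, was the widest of all members.

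pbs-2, the lowest beta gene, had 189, 206 and 196 CPM in control and 214, 161 and 176 with caffeine, in the same order of libraries. Its log2 fold change was -0.10 (SE 0.099; edgeR adjusted p 0.467). pbs-5 had 187, 215 and 211 CPM in control and 212, 170.1 and 189.7 with caffeine. In pbs-5 only caffeine library 2 lay below all controls.

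pbs-4 (chromosome I, 3908747 to 3909701, plus strand), a structural beta subunit, had the highest log2 fold change of all members. It stood at 199.9, 210.2 and 208 CPM in control and at 221, 232 and 222 with caffeine, and every caffeine library was above every control. The log2 fold change was 0.13 (SE 0.051), with an unadjusted p of 0.0378 and an adjusted p of 0.106 (edgeR). Its exons share 73 bp with mrrf-1 on the other strand, and the use of strand in counting is not given in the sources used here. pbs-7, a structural subunit too, had 270.4, 272 and 282 CPM against 292, 283 and 286, and its exons share 70 bp with K07A12.5 on the same strand. The lowest caffeine value of pbs-7 was just above its highest control value, and the adjusted p was 0.386 (edgeR).

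In the base of the regulatory particle, the 6 ATPases that unfold substrates and open the gate had values on both sides of 0. Their log2 fold changes ran from -0.12 for rpt-6 to 0.12 for rpt-3, with a median of 0.016. rpt-3 (chromosome III, 6489793 to 6491282, plus strand) had 312, 304 and 306 CPM in control and 339, 328 and 337 with caffeine. The groups did not overlap, and the log2 fold change of 0.12 (SE 0.051) had an unadjusted p of 0.0409 and an adjusted p of 0.112 (edgeR). rpt-4 had 270.0, 276 and 273 CPM against 289, 288 and 291, also without overlap, at an adjusted p of 0.238 (edgeR). Its exons share 103 bp with rpoa-49 on the other strand, which had up to 2267 counts in a library. rpt-6 had 223, 236 and 218 CPM in control and 230.0, 186 and 207 with caffeine, and its groups overlapped. rpt-1, rpt-2 and rpt-5 had log2 fold changes of -0.056, 0.015 and 0.018.

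With the TMM factors, all 4 scaffold and ubiquitin receptor subunits of the base lay below their controls in caffeine libraries 2 and 3. In unscaled counts this did not hold for rpn-2 or rpn-13. There, caffeine library 2 had 26419 counts for rpn-2, above the controls (25508 to 26240). For rpn-13 it had 9051 counts, among the controls (9043 to 9210). rpn-1 (chromosome IV, 6906420 to 6909913, minus strand), a scaffold that docks ubiquitin-binding and deubiquitinating proteins, had 491, 517 and 535 CPM in control. With caffeine it had 523, 397 and 456 CPM, so that caffeine library 1 lay among the controls and the other two lay below them. Its log2 fold change was -0.17 (SE 0.099), with a 95% interval from -0.39 to 0.060 and an adjusted p of 0.246 (edgeR). rpn-2, the second scaffold, had 632, 661 and 645 CPM against 729.8, 609.5 and 622, on both sides of the controls.

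rpn-10, a receptor for ubiquitin chains, had 202, 199.8 and 202 CPM in control and 195, 170.3 and 188 with caffeine. All 3 caffeine values lay below the controls, and the log2 fold change of -0.13 (SE 0.061) had an adjusted p of 0.164 (edgeR). rpn-13, the other ubiquitin receptor, overlapped between groups, with a log2 fold change of -0.051.

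In the lid, rpn-6.1 came closest to the threshold of all 33 members. Its product ties the lid to the core, and its overexpression has been tied to proteasome activity and stress resistance in C. elegans. rpn-6.1 (chromosome III, 6959110 to 6962001, minus strand) stood at 240.4, 234 and 239.7 CPM in control and at 223, 210.3 and 215 with caffeine. Every caffeine library was below every control. The log2 fold change was -0.14 (SE 0.050), a difference of -9.21%, with an unadjusted p of 0.0232 and an adjusted p of 0.0768 (edgeR). With DESeq2 the adjusted p was 0.0298, and over all alternatives it ran from 0.0206 to 0.204.

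Its copy rpn-6.2 (chromosome III, 8999817 to 9001999, minus strand) had 16.7, 19.9 and 17.5 CPM in control and 18.2, 16.8 and 18.2 with caffeine. The groups overlapped, with a log2 fold change of -0.024 (SE 0.092). The highest rpn-6.2 value was in control library 2, which also had the highest summed level of the sperm markers, at 45.8 CPM against 21.5 to 31.3 in the other libraries. The other libraries did not keep 1 order. Control library 1 had the next highest sperm marker sum, 31.3 CPM, with the lowest rpn-6.2 value, 16.7 CPM. Caffeine library 2 had the lowest sum, 21.5 CPM, with an rpn-6.2 value of 16.8 CPM. Of 12 listed sperm markers 11 were matched and 8 tested, and none was at 0 in all libraries. Of those tested, 2 were called lower and 0 higher, where 10.5% of all tested genes were called lower and 13.8% higher. The part of the sperm markers in the rpn-6.2 values was not tested.

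rpn-3, a structural lid subunit (chromosome III, 8447353 to 8449346, plus strand), had the highest change of the lid. It had 399.5, 396 and 421 CPM in control and 441, 439.9 and 437 with caffeine, without overlap. Its log2 fold change was 0.11 (SE 0.055; edgeR adjusted p 0.162). rpn-7 had 442, 454 and 466 CPM against 484, 478 and 478, and rpn-12 had 159, 155 and 156 against 160.4, 164 and 165. Both were without overlap, with adjusted p of 0.305 and 0.380 (edgeR). Exons of rpn-7 share 394 bp with nemt-1 on the other strand, which had at most 9.01 counts in a library. The deposited count of rpn-7 was fractional in 5 of 6 libraries, and those of rpn-9 and rpn-13 in 1 each.

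rpn-11, the deubiquitinating enzyme of the lid, had 293, 327 and 311 CPM in control and 339.8, 267 and 271 with caffeine. Caffeine library 1 was above the controls and the other caffeine libraries were below them. With the TMM factors this also held for pbs-1, pbs-2, rpn-2 and rpn-13. rpn-8, the partner of rpn-11, had a log2 fold change of 0.058, and rpn-5 and rpn-9 had -0.070 and 0.024. These 3 genes overlapped between groups.

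Counted over all members, the 3 caffeine values lay wholly above the controls in 9 of 33 genes (27.3%), beside 23.3% of all tested genes. The 9 were pas-4, pas-6, pbs-4, pbs-7, rpt-3, rpt-4, rpn-3, rpn-7 and rpn-12. They lay wholly below the controls in 2 of 33 (6.06%), rpn-10 and rpn-6.1, beside 20.9% of all tested genes. Without scaling factors the counts were 12 higher and 2 lower, beside 23.7% and 18.3% of all tested genes.

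**Figure D3:**
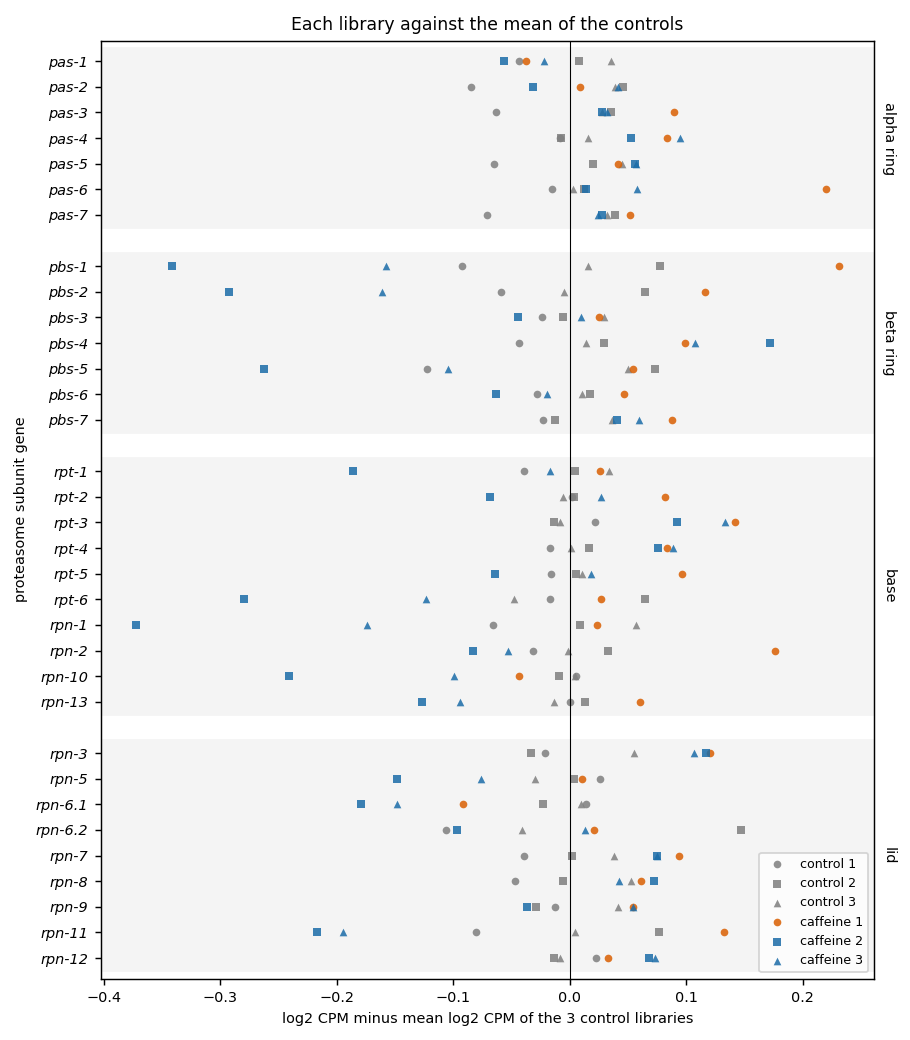
Log2 CPM of each proteasome subunit gene in each library minus the mean of the 3 controls, for control (grey), caffeine 1 (orange) and caffeine 2 and 3 (blue) libraries. pbs-1, pbs-2, rpn-2, rpn-11 and rpn-13 have caffeine 1 above and caffeine 2 and 3 below all controls. Among others, pbs-4, rpt-3 and rpn-3 have all caffeine libraries above.

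The calls depended on caffeine library 1. With the TMM factors, it stood above the control mean in 30 of 33 members, caffeine library 2 in 13 and caffeine library 3 in 19. Over all tested genes the shares above the control mean were 49.8%, 51.3% and 51.4%. It was the highest caffeine library in 24 of 33 members, where this held for 34.0% of all tested genes. Without scaling factors it was the highest in 9 of 33, beside 20.2% of all tested genes, so that order depended on the scaling. Those 9 were pas-6, pbs-1, pbs-2, pbs-5, rpt-6, rpn-1, rpn-2, rpn-11 and rpn-13. The rounded counts of pbs-1 were 8317, 9205 and 8886 for control libraries 1 to 3, beside 10004, 7516 and 8113 for caffeine libraries 1 to 3.

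With caffeine library 1 left out, 7 of 33 members (21.2%) were called lower and 0 higher by edgeR, beside 17.3% of all genes called lower and 15.6% called higher in that fit. The share of members called lower was near that of all genes. The 7 were pbs-1 and pbs-2 of the core and rpt-6, rpn-1, rpn-10, rpn-6.1 and rpn-11 of the regulatory particle. Their log2 fold changes ran from -0.27 for rpn-1 to -0.17 for rpn-6.1, with adjusted p between 0.0206 and 0.0415 (edgeR quasi-likelihood test, with 2 caffeine libraries). Leaving out any of the other 5 libraries gave 0 calls.

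**Figure D4:**
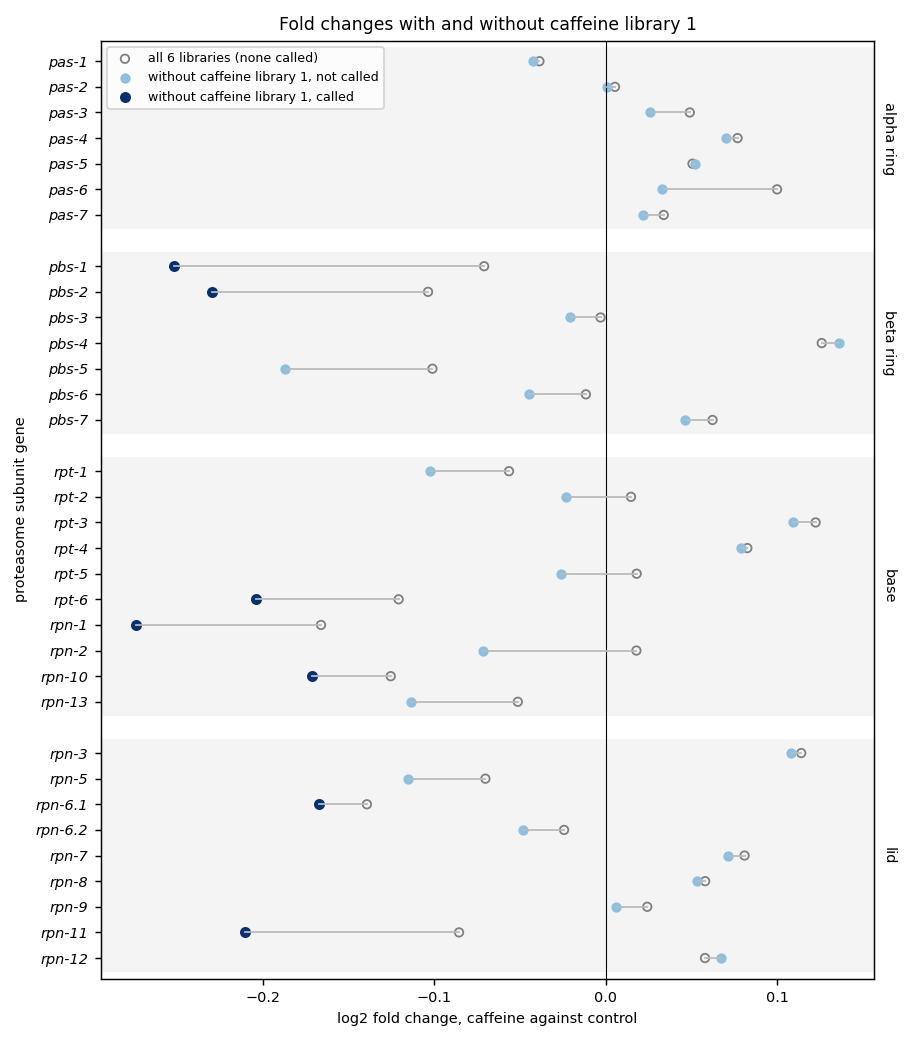
Log2 fold change of each proteasome subunit gene with all 6 libraries (open circles) and without caffeine library 1 (filled circles, dark where called at an adjusted p under 0.05). The 7 called genes lie between -0.27 and -0.17 without that library, and 0 are called with all 6.

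With the TMM factors, germline and oocyte markers differed between the caffeine libraries in the same order as the summed proteasome genes. Without the factors, the order of the proteasome genes was another. As a share of all counts, the 33 genes were lowest in caffeine library 1 (0.959%) and highest in caffeine library 2 (0.968%). The summed level of 15 listed genes, all tested, was 16369, 17661 and 16869 CPM in control. With caffeine it was 17579 CPM in library 1, 13790 in library 2 and 14988 in library 3, so that libraries 2 and 3 were below all controls. Of the 15 genes, pgl-1 was called lower, none was called higher and none was at 0, where 10.5% of all tested genes were called lower and 13.8% higher. In whole animals, fewer cells of a type and less RNA per cell cannot be told apart. The part of the germline in the proteasome values was not tested. Intestine markers (9 of 9 tested) had 2 called higher and 4 lower, beside 13.8% and 10.5% of all tested genes. Their sums ran from 1986 to 2330 CPM in control and from 2116 to 2318 with caffeine. Changes of opposite direction lay within these sums. The mean of act-5 went from 232 CPM in control to 106 with caffeine, and that of vha-6 from 147 to 276. Embryo markers (8 of 8 tested) had 2 called higher and 2 lower, beside the same shares of all tested genes. Their sums ran from 14.8 to 20.1 CPM in control and from 19.9 to 23.05 with caffeine. Here too single genes went opposite ways. The mean of ceh-51 went from 1.38 to 4.42 CPM, and that of tbx-37 from 2.03 to 1.11. None of these markers was at 0 in all 6 libraries. Their part in the proteasome values was not tested.

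The regulators of proteasome genes were examined through 5 genes of the SKN-1A route, of which 1 was called lower and 0 higher, with a median log2 fold change of -0.12. Over all tested genes, 10.5% were called lower and 13.8% higher, and the median was -0.00068. skn-1 itself had 401, 413 and 408 CPM in control, where caffeine libraries 1 to 3 had 363, 299 and 323, all below the controls. It fell by 0.31 on the log2 scale (SE 0.077; edgeR adjusted p 0.0219). These counts do not separate SKN-1A from the other products of skn-1. The genes that process SKN-1A were not called. ddi-1, the protease that cuts it, had 151 ± 2.05 CPM in control and 158 ± 5.79 with caffeine (mean ± SD over 3 libraries). png-1, which edits its sequence by removing sugars, had a log2 fold change of -0.12, and sel-1 and sel-11, of the pathway that exports it from the endoplasmic reticulum, had 0.015 and -0.13.

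Genes of ubiquitin and its enzymes included 5 that fell. Of 25 listed genes for ubiquitin and its activating and conjugating enzymes, 23 were tested, with 5 called lower and 0 higher, where 10.5% of all tested genes were called lower and 13.8% higher. The median log2 fold change of the list was -0.10. ubq-1, which encodes a chain of ubiquitin units, stood at 2388 ± 44.7 CPM in control and 1779 ± 309 with caffeine. Its 3 caffeine values, from 1489 to 2104 CPM, were below the controls, and it fell by 0.42 on the log2 scale (SE 0.12; edgeR adjusted p 0.0393). ubc-12, whose product attaches the ubiquitin-like protein NED-8 rather than ubiquitin, fell by 0.52 on the log2 scale, with an adjusted p of 0.00623 (edgeR). The ubiquitin-conjugating genes ubc-3 and ubc-1 fell by 0.38 and 0.27.

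Around the proteasome, 1 of 13 delivery and associated factors rose and 1 fell, beside 13.8% and 10.5% of all tested genes, with a median log2 fold change of -0.015. cdc-48.2, one of the genes for the ATPase that extracts ubiquitinated proteins, went from 565 ± 9.94 to 444 ± 63.4 CPM and fell by 0.35 on the log2 scale (SE 0.10; edgeR adjusted p 0.0384). npl-4.1, for a cofactor of that ATPase, rose by a log2 fold change of 0.17, but its 6 values were fractional, as were those of its copy npl-4.2, so the division of reads between them is uncertain. dss-1, whose product is a small lid subunit outside the symbol rule, had a log2 fold change of -0.023 and was not called.

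Of 19 deubiquitinating enzymes, 1 rose and 3 fell, beside the same 13.8% and 10.5% of all tested genes, with a median log2 fold change of -0.073. usp-14, whose product acts on the proteasome itself, went from 244 ± 12.7 to 198 ± 24.1 CPM and fell by 0.30 on the log2 scale (SE 0.090; edgeR adjusted p 0.0447). usp-50 and usp-33 fell by 0.43 and 0.22 on the log2 scale, and otub-1 rose by 0.20. The deposited count of usp-50 was fractional in 4 of 6 libraries. Of 32 listed cullin-RING ligase parts, 31 were tested, with 3 higher and 2 lower, beside those same shares of all genes, and a median log2 fold change of -0.047. skr-21 and skr-19, for adaptors of the Skp1 kind, rose at log2 fold changes of 0.73 and 0.38. skr-4 and the cullin gene cul-6 fell by 0.46 and 0.67.

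The lid shares its protein folds with the COP9 signalosome and the translation factor eIF3, so their genes were set beside it. Of 18, all tested, 2 fell and 0 rose, where 10.5% of all tested genes fell and 13.8% rose, and the median log2 fold change was -0.033. eif-3.J, for a loosely bound eIF3 subunit, went from 56.9 ± 0.770 to 36.4 ± 4.06 CPM and fell by 0.64 on the log2 scale (SE 0.083; edgeR adjusted p 0.00122). csn-1, a signalosome subunit, fell by 0.20. The other 16 were not called.

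Many of these calls on neighbouring genes were lost when any 1 of several libraries was left out. Named from these 6 lists were 17 called genes, of which ubc-1, ubc-3, ubc-12, skr-4, skr-21 and eif-3.J were called in all 14 alternatives, and the other 11 in 5 to 11 of them. All 17 were called without caffeine library 1, 10 without caffeine library 2, 6 without caffeine library 3, and 7, 7 and 6 without control libraries 1, 2 and 3. skn-1 was lost without any 1 of the controls and without caffeine library 3. ubq-1, cdc-48.2 and usp-14 were called with a library left out only when that was caffeine library 1. Their adjusted p over all alternatives ran from 0.0019 to 0.115 for ubq-1, from 0.0050 to 0.111 for cdc-48.2 and from 0.0063 to 0.138 for usp-14 (edgeR, DESeq2 and limma-voom).

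The members lie on the autosomes. Chromosome I held 10 of 33 (30.3%), where it held 16.1% of the tested genes, and 7 of those 10 are core genes. Chromosome III held 8, II held 7, V held 5 and IV held 3. None lies on X, which held 13.8% of the tested genes. All 33 are annotated as protein-coding, with merged exons from 801 bp for pbs-4 to 3171 bp for rpn-1.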

How the data were processed

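The authors deposited, per the file headers, gene IDs and expected counts in 1 table for each library. The submitters' processing notes name STAR 2.7.0e, RSEM 1.3.1 and the builds WBcel235 and ce11. Strand use in counting is not given in the sources used here. Libraries held 40417780 to 40746556 counts. Expected counts were rounded, filtered with filterByExpr (minimum count 10, minimum total 15) and scaled with TMM. Caffeine was tested against control with the quasi-likelihood test of edgeR 4.0.16 in R 4.3.3, without covariates. The SE is the log2 fold change over the square root of F, and the 95% interval uses the t quantile at the test's degrees of freedom. Symbols came from a table of gene names. Coordinates and exon lengths came from Ensembl release 115 (WBcel235). DESeq2 1.42.0 and limma 3.58.1 served as alternatives. The fit was tested on simulated data. Lists, members and the naming rule were chosen with earlier results of these data known. Values per library are given for the extreme members of each subcomplex, rpn-6.1 and rpn-6.2, and others added after their values were seen. From each other list at most 4 called genes were named, by smallest adjusted p. The labels call the libraries biological replicates.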

Additional observations from a re-analysis of the deposited data

How the results depend on the processing

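The 14 alternatives were other scalings, filters and tools, the replicate block and the removal of each library. Calls among proteasome subunit genes stayed at 0 higher in all of them. Calls lower were 0 except with DESeq2, which gave 1 (a regulatory gene), and without caffeine library 1. With 1 library left out they ran from 0 to 7, of which 0 to 2 in the core and 0 to 5 in the regulatory particle. Among the other ubiquitin-proteasome lists, 5 higher and 14 lower became 1 and 7 with the replicate block. Without the low-count filter 3 were higher. With 1 library left out the counts ran from 1 to 8 higher and from 5 to 29 lower. There was no sign that replicate numbers paired the libraries, though 3 libraries per group are too few to exclude it. Same-numbered deviations from the group means correlated at -0.18, -0.16 and 0.25 over genes, so the block result is a check only. It changed no call among the members. In 22 of 33 members the sign held in all 14, and in 11, none of them called with all 6 libraries, it changed in at least 1. Log2 fold changes of opposite sign, all uncalled, were 0.0045 for pas-1, 0.039 for pbs-3, 0.030 for pbs-6 and 0.018 for rpn-6.2 by totals only. With upper-quartile scaling they were 0.024 for pbs-3, 0.015 for pbs-6 and 0.0017 for rpn-6.2. With the filter at a mean of 50 counts pbs-3 had 0.0067. pas-2 had -0.0038 with median-of-ratios scaling and -0.0038 with DESeq2. With 1 library left out, the ranges were -0.037 to 0.026 for pas-2, -0.0027 to 0.050 for pas-7, -0.25 to 0.049 for pbs-1, -0.021 to 0.019 for pbs-3 and -0.045 to 0.015 for pbs-6. They were -0.10 to 0.0055 for rpt-1, -0.023 to 0.056 for rpt-2, -0.026 to 0.059 for rpt-5, -0.072 to 0.067 for rpn-2 and -0.078 to 0.049 for rpn-6.2. The cause of these changes was not tested.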
